A study of Mus musculus with 16 samples.

Results

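The genes described here are 9 transcripts that mark mast cells and basophils, out of 13733 genes listed for the whole series. They were chosen by name: the granule proteases Cpa3, Mcpt4, Cma1 and Tpsb2 of mast cells, the granule protease Mcpt8 of basophils, the receptors Kit, Ms4a2 and Fcer1a, and Hdc, the enzyme that makes histamine. All 9 were found in the table. The rule uses no measured value, but the set was chosen with earlier results of these data known. The study asked how immune cells of the mouse knee respond to a joint injury and whether the receptor TREM2 matters for that response. RNA was sequenced in bulk from knee joint cells of male mice in 4 groups of 4. C57BL/6 mice were taken without injury (WT D0) or 7 days after it (WT D7), and so were mice of that background with a germline knockout of Trem2 (C57BL/6J-Trem2em2Adiuj/J), as Trem2-/- D0 and Trem2-/- D7. Every cell of these mice carries the knockout, so it is not limited to macrophages. The injury was a single overload of the tibia that tears the anterior cruciate ligament, at 10 weeks of age, and the injured mice were given the opioid analgesic buprenorphine with saline right after it, so injury and analgesic cannot be told apart. The extraction protocol in the sample labels speaks of control and T1DM (diabetic) mice, an age of 16 weeks and homogenized whole joints, and no group of this series is labelled diabetic, whereas the study's methods describe cells released from the joint with collagenase, and which of these holds could not be settled from the files. Each library is labelled as a separate mouse.

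Mast cells are long-lived tissue cells that grow and survive through KIT, the receptor for stem cell factor, and are packed with granules of histamine, heparin and proteases. Basophils are short-lived cells of blood and marrow that share the IgE receptor and histamine with mast cells but make a different protease, MCPT8. In the mouse, mast cells of connective tissues such as the synovium and joint capsule carry the chymases MCPT4 and CMA1 and the tryptase TPSB2, while Cpa3 is also active in basophils and in early progenitors of both lineages. Hdc is active in neutrophils and other marrow myeloid cells as well, and Kit in blood progenitors and melanocytes, so neither gene belongs to mast cells alone.

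The reads carry these genes at very different levels, which decides how firmly each can be described. All values are CPM, read counts scaled to library size with TMM factors, as deposited, and libraries held 11567073 to 32867818 reads (median 16399898), so that 3 reads corresponded to 0.101 to 0.250 CPM. Hdc had at least 4602 reads in every library and Kit at least 21.9 CPM, whereas the group means of Mcpt4, Cma1, Tpsb2 and Ms4a2 lay between 0.417 and 2.55 CPM. Single libraries of Mcpt4 (Trem2-/- D0), Cma1 (Trem2-/- D7), Tpsb2 (Trem2-/- D0 and Trem2-/- D7) and Fcer1a (WT D7) held 3 reads or fewer, and those values lie at the counting limit. Trem2 itself, the check on the labels, was 2.51, 4.88, 5.26 and 5.61 CPM in the 4 WT D0 mice and 15.1, 22.5, 18.9 and 10.7 CPM in the WT D7 mice. In the Trem2-/- mice it was 1.88, 0.948, 2.68 and 1.70 CPM at D0 and 4.13, 4.69, 3.42 and 4.84 CPM at D7, so transcripts remained but every Trem2-/- D7 value lay below every WT D7 value. WT D0 libraries agreed least with each other, and 1 of them, replicate 4, held more connective tissue RNA than the others (summed level of 7 connective tissue markers at 55692 CPM, against a group median of 19589 CPM).

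Mast cells and basophils both need the transcription factor GATA2, and the 250 bases before the start of 5 members are printed here to show where letters of its kind lie. They are the 3 members Mcpt8, Cpa3 and Ms4a2, which were lower after injury in the comparisons that follow, and the chymase genes Mcpt4 and Cma1, which were not. Sequences are from RefSeq on GRCm38.p6, each on the minus strand and written 5′ to 3′ up to the start of transcription. The windows are chr14:56085198-56085447 for Mcpt8, chr3:20242182-20242431 for Cpa3, chr19:11623720-11623969 for Ms4a2, chr14:56062311-56062560 for Mcpt4 and chr14:55944676-55944925 for Cma1. Capitals mark GATA letters on either strand, here AGATAA with T also allowed as the first letter and G as the last, none of which overlapped another searched motif in these windows.
Mcpt8: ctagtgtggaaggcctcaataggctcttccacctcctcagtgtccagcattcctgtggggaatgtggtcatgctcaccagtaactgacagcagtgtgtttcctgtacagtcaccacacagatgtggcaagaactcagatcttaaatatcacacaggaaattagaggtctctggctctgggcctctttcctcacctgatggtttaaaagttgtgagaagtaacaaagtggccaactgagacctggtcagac
Cpa3: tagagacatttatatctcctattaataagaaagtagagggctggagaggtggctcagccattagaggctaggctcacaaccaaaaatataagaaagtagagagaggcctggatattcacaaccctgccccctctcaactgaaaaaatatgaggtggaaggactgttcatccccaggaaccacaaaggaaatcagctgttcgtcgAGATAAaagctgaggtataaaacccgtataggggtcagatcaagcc
Ms4a2: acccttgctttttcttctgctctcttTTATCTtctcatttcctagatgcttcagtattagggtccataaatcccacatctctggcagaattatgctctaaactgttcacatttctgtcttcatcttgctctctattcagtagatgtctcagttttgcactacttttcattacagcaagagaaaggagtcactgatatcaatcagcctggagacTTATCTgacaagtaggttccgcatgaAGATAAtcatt
Mcpt4: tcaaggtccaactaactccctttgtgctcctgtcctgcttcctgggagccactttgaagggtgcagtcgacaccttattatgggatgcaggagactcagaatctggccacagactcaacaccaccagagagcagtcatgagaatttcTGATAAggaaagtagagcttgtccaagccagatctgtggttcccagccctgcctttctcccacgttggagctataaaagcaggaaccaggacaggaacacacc
Cma1: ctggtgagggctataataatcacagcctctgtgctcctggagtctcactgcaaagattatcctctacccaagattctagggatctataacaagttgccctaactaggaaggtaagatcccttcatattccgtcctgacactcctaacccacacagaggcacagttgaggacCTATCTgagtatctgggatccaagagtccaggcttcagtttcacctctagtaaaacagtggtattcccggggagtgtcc

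Of the 8 members with a RefSeq promoter in the table used (all but Tpsb2), 6 held GATA letters in this window, and so did 26.5% of 32851 mouse promoter windows of the same length. Ms4a2 held them 3 times, and Cpa3, Mcpt4, Cma1, Fcer1a and Hdc once each. Mcpt8, which was lower after injury, and Kit, which was not, held none in these 250 bases. The RUNX letters TGTGGT were found on either strand in 4 members (Mcpt8, Cpa3, Mcpt4 and Fcer1a) and in 14.0% of promoters, and the E-box letters CATGTG or CACGTG in Fcer1a alone and in 17.6% of promoters. Members that were lower after injury and members that were not thus both carried GATA letters. A match is a run of letters, and binding was not measured. Mcpt8, Mcpt4 and Cma1 lie in one stretch of chromosome 14 (14:55941451-56085273 on GRCm38, GENCODE M21), all on the minus strand, and the other members are on chromosomes 1, 2, 3, 5, 17 and 19. No exon of a member overlapped an exon of another gene. Reads of 75 bases could be shared with a relative over 2.51% of start positions for Mcpt4 (with Cma2), 1.67% for Cma1 (with Gm48934) and 1.22% for Ms4a2 (with Ms4a4b), and over 0 for the rest.

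Per kilobase of exon, the mean level in WT D0 joints ran from Hdc at 191 ± 51.3 CPM per kb (SD, n = 4) through Mcpt8 at 52.1 ± 28.4, Cpa3 at 9.76 ± 4.46, Kit at 3.53 ± 0.929 and Fcer1a at 3.25 ± 1.79 to Mcpt4 at 1.81 ± 0.819, Cma1 at 1.36 ± 0.460, Tpsb2 at 0.699 ± 0.405 and Ms4a2 at 0.586 ± 0.397. The steps from Hdc to Mcpt8 and from Mcpt8 to Cpa3 exceeded the SDs. Kit and Fcer1a did not differ beyond their spread, nor did Mcpt4 and Cma1, nor Tpsb2 and Ms4a2. In Trem2-/- D7 joints, Kit at 4.22 ± 0.980 CPM per kb stood above Cpa3 at 1.70 ± 0.475, an order opposite to that in WT D0 joints, and Mcpt8 had come down to 7.46 ± 1.75. These levels are averages over all cells sampled: in bulk RNA, fewer cells of a type and less RNA per cell cannot be told apart.

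The first question was what the injury did to these genes in WT joints. At D7, 5 of the 9 members were called lower than at D0 and 0 higher, where a gene is called at an unadjusted p under 0.05 in limma with a log2 fold change beyond 0.32, the call rule of the study's methods. The 5 were Mcpt8, Cpa3, Ms4a2, Fcer1a and Hdc, and 18.2% of all 13173 genes tested were called lower, 19.3% higher and 37.4% in either direction. After Benjamini-Hochberg adjustment over all genes, 4 of the 5 stayed under 0.05, against 12.6% of all genes in that direction, and Hdc was at 0.0513. Ms4a2 is among both the 5 and the 4, but only uninjured libraries carried it past the filter of 1 CPM in 4 libraries. It could hardly have been tested without being higher at D0. That adjusted count rested on single mice: leaving out replicate 3 of the WT D0 mice brought it to 0, replicate 2 of that group or replicate 4 of the WT D7 mice to 1, and WT D7 replicate 2 to 2. The proteases of connective tissue mast cells, Mcpt4, Cma1 and Tpsb2, and Kit were not called. The median log2 fold change of the 9 was -0.78, and that of all genes tested was -0.04. The former is the value of Ms4a2 itself and carries the limit of that gene, so little is read from it.

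**Figure D1:**
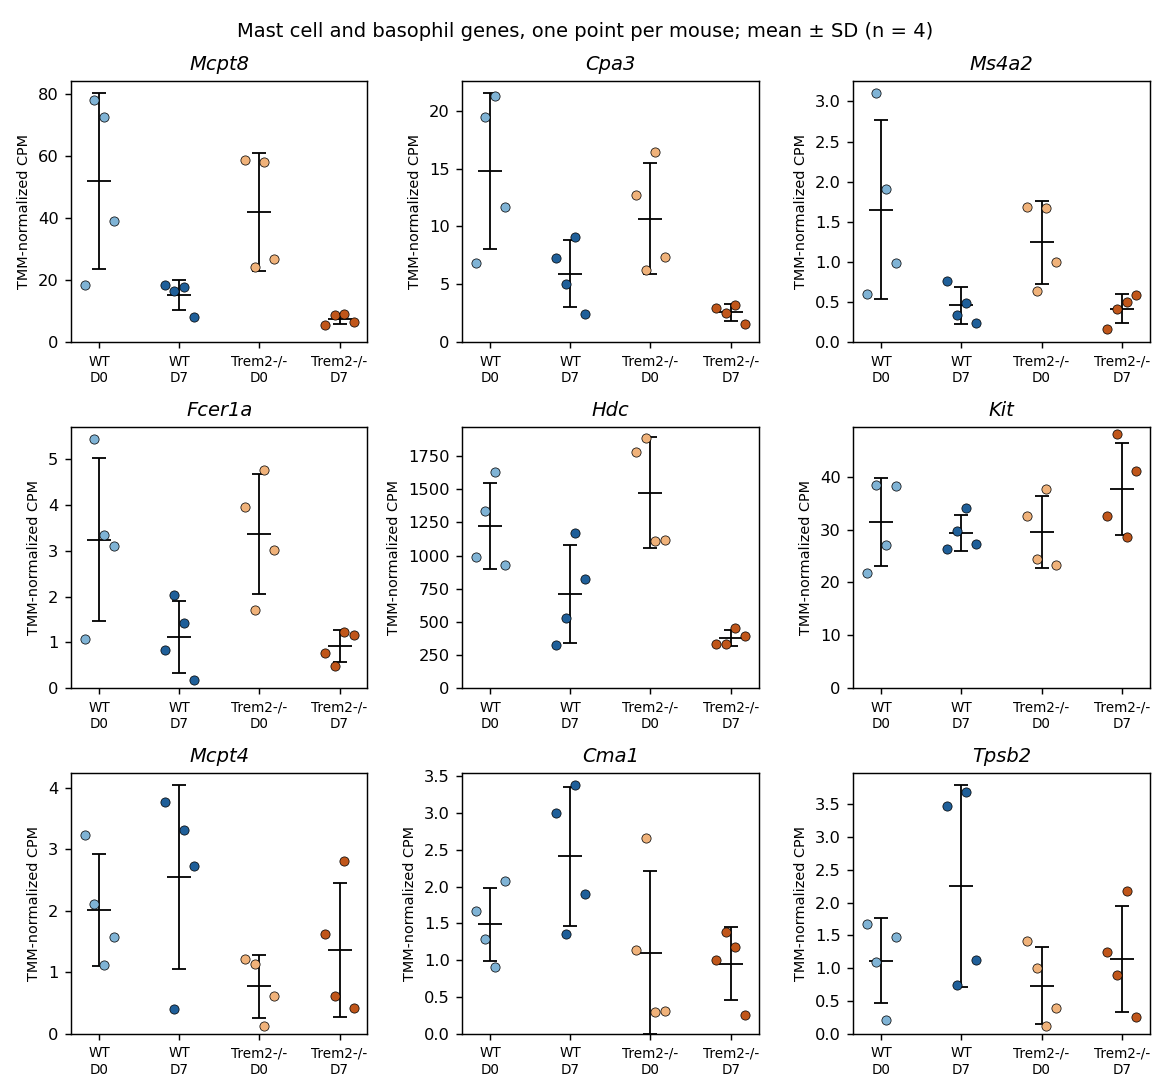
CPM of the 9 genes (y axis, each panel on its own linear scale from 0) in joints of both genotypes at D0 and D7; each point is 1 mouse, and the bar gives the mean with its SD (n = 4), cut at 0. The upper 5 panels from Mcpt8 to Hdc sit lower at D7 in both genotypes, whereas Kit stays between 21.9 and 48.2 CPM throughout and the Mcpt4, Cma1 and Tpsb2 points of D0 and D7 overlap.

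Mcpt8, the basophil protease, was 18.3, 78.1, 72.7 and 39.1 CPM in the WT D0 mice and 18.3, 16.4, 17.9 and 8.08 CPM in the WT D7 mice. Replicate 1 of WT D0 was the low one, and at 18.34 CPM it cleared the highest WT D7 mouse, at 18.31 CPM, by a margin far smaller than the spread between mice. Mcpt8 was nevertheless the only member whose WT D0 and WT D7 values did not overlap, as was the case in that direction for 9.34% of all genes. Its mean fell 3.43-fold (log2 fold change -1.57 ± 0.41 SE, limma adjusted p = 0.0132, exact permutation p = 0.0286, the smallest that 4 mice against 4 can give).

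Cpa3, which encodes carboxypeptidase A3 of mast cell and basophil granules, was 6.81, 19.5, 21.3 and 11.7 CPM in WT D0 and 7.24, 4.98, 9.07 and 2.44 CPM in WT D7 joints. Replicate 1 of WT D0 was again the lowest of its group, and it lay inside the WT D7 range. The mean fell 2.50-fold (log2 fold change -1.18 ± 0.38, limma adjusted p = 0.0312, exact permutation p = 0.0857). The other mast cell proteases did not go with it: Mcpt4 was 3.23, 2.10, 1.12 and 1.58 CPM in WT D0 and 3.76, 0.396, 3.31 and 2.73 CPM in WT D7 mice. Cma1 was 1.67, 1.29, 0.904 and 2.07 CPM in WT D0 and 2.99, 1.36, 3.38 and 1.90 CPM in WT D7 mice. Tpsb2 was 1.67, 1.10, 0.213 and 1.47 CPM in WT D0 and 3.48, 0.736, 3.69 and 1.13 CPM in WT D7 mice. In each of the 3 the groups overlapped, and the highest WT D7 mice were replicates 1 and 3. The 95% intervals of their log2 fold changes were -0.69 to 0.97 for Mcpt4, -0.23 to 1.11 for Cma1 and -0.25 to 1.35 for Tpsb2. The log2(CPM + 1) scale understates the change of such low genes, so a 2-fold rise in CPM was not excluded for any of the 3.

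The IgE receptor genes were lower at D7. Fcer1a, whose product binds IgE, was 1.08, 5.45, 3.35 and 3.10 CPM in WT D0 and 0.836, 2.04, 1.41 and 0.178 CPM in WT D7 mice. Here too replicate 1 of WT D0 was lowest and fell among the WT D7 values, and the log2 fold change was -0.98 ± 0.34 (limma adjusted p = 0.0431, exact permutation p = 0.0857). Ms4a2, the beta chain that amplifies the receptor's signal, was 0.598, 3.11, 1.91 and 0.980 CPM in WT D0 and 0.766, 0.340, 0.483 and 0.238 CPM in WT D7 mice. Its log2 fold change was -0.78 ± 0.25 (limma adjusted p = 0.0321, exact permutation p = 0.0571), but only uninjured libraries carried it past the filter of 1 CPM in 4 libraries, so it could hardly have been tested without being higher at D0. Kit was 21.9, 38.4, 27.2 and 38.3 CPM in WT D0 and 26.4, 29.8, 34.1 and 27.3 CPM in WT D7 mice. Every WT D7 value of Kit lay inside the WT D0 range, and its log2 fold change was -0.06 (95% interval -0.50 to 0.37).

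Hdc, which makes histamine from histidine, was 988.5, 1338, 1634 and 930.3 CPM in WT D0 and 320.5, 531, 1170.3 and 825 CPM in WT D7 mice. The WT D7 mice were spread 3.65-fold, and replicate 3 lay within the uninjured range. The log2 fold change was -0.90 ± 0.33 (limma unadjusted p = 0.0148, adjusted p = 0.0513, exact permutation p = 0.114). Without WT D0 replicate 3 or without WT D7 replicate 1 the call on Hdc was lost (limma unadjusted p = 0.0506 and 0.0646).

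In Trem2-/- joints the same comparison gave the same 5 members called lower and 0 higher, Ms4a2 among them with the limit given above that only uninjured libraries carried it past the filter, with 27.9% of all genes called lower and 26.5% higher, and all 5 had an adjusted p under 0.05 (27.2% of all genes in that direction). The 5 were also the members whose D0 and D7 groups did not overlap, which held in that direction for 26.3% of all genes. In these joints 54.5% of all genes were called in either direction, so the members' share is read against a high background. The median log2 fold change was -0.64 for the 9 members, which is again the value of Ms4a2 and carries its limit, and -0.04 for all genes.

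**Figure D2:**
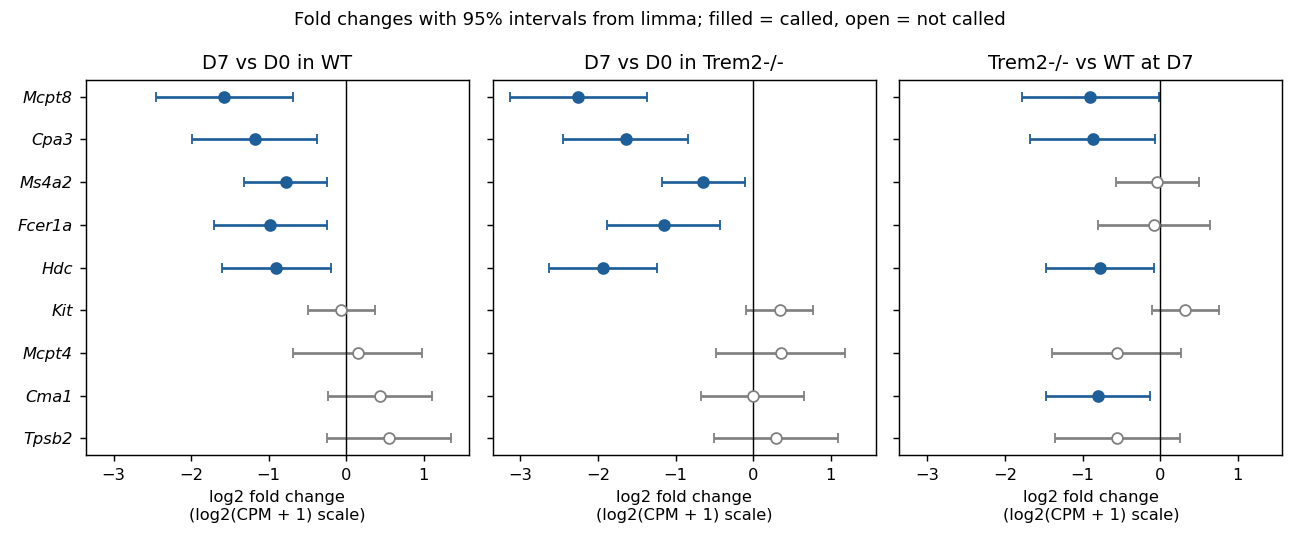
Log2 fold changes from limma (x axis, log2(CPM + 1) scale) with 95% intervals for the 9 genes at D7 against D0 in WT, D7 against D0 in Trem2-/- and Trem2-/- against WT at D7; filled points were called at an unadjusted p under 0.05 and a log2 fold change beyond 0.32. Mcpt8 reaches -1.57 in WT and -2.25 in Trem2-/- joints after injury, and the 4 genotype calls at D7 have intervals that end just below 0.

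Mcpt8 was 58.7, 24.1, 58.1 and 26.6 CPM in Trem2-/- D0 and 5.51, 8.82, 9.01 and 6.42 CPM in Trem2-/- D7 mice. The uninjured mice fell into a high and a low pair, and all 4 injured mice were far below both. The mean fell 5.63-fold (log2 fold change -2.25 ± 0.41, limma adjusted p = 0.000415). Cpa3 was 12.7, 6.25, 16.5 and 7.34 CPM in Trem2-/- D0 and 2.92, 2.55, 3.25 and 1.58 CPM in Trem2-/- D7 mice, with the same pair of uninjured mice high, replicates 1 and 3. Its mean fell 4.15-fold (log2 fold change -1.64 ± 0.38, limma adjusted p = 0.00216).

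Hdc was 1780.2, 1889.9, 1111 and 1119 CPM in Trem2-/- D0 and 328, 331, 454 and 388.5 CPM in Trem2-/- D7 mice. Here replicates 1 and 2 were the high ones at D0, a different pair from that of Mcpt8 and Cpa3. Its mean fell 3.93-fold (log2 fold change -1.94 ± 0.33, limma adjusted p = 0.000222). Fcer1a was 3.97, 1.71, 4.77 and 3.01 CPM in Trem2-/- D0 and 0.773, 0.482, 1.23 and 1.17 CPM in Trem2-/- D7 mice, a fall of 1.15 ± 0.34 on the log2 scale (limma adjusted p = 0.0104). Ms4a2 was 1.68, 0.632, 1.67 and 1.00 CPM in Trem2-/- D0 and 0.168, 0.413, 0.504 and 0.584 CPM in Trem2-/- D7 mice, a log2 fold change of -0.64 ± 0.25 (limma adjusted p = 0.0428). For each of these 5 genes the exact permutation p was 0.0286. The call on Ms4a2, the faintest of them, was lost without Trem2-/- D0 replicate 1 or 3 or Trem2-/- D7 replicate 1 (limma unadjusted p = 0.0650, 0.0635 and 0.0641).

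Mcpt4 was 1.21, 1.14, 0.119 and 0.618 CPM in Trem2-/- D0 and 1.61, 0.620, 2.80 and 0.417 CPM in Trem2-/- D7 mice. Cma1 was 1.14, 2.65, 0.298 and 0.309 CPM in Trem2-/- D0 and 1.01, 1.38, 1.18 and 0.250 CPM in Trem2-/- D7 mice. Tpsb2 was 1.41, 1.01, 0.119 and 0.386 CPM in Trem2-/- D0 and 1.24, 0.896, 2.18 and 0.250 CPM in Trem2-/- D7 mice. The D0 and D7 ranges of all 3 overlapped, and their 95% intervals ran from -0.48 to 1.18, from -0.68 to 0.66 and from -0.51 to 1.09 on the log2 scale. Kit was 32.5, 24.5, 37.8 and 23.2 CPM in Trem2-/- D0 and 32.6, 48.2, 28.7 and 41.1 CPM in Trem2-/- D7 mice, and its log2 fold change was 0.34 (95% interval -0.09 to 0.78). Kit became called higher without Trem2-/- D0 replicate 3 or Trem2-/- D7 replicate 3 (limma unadjusted p = 0.0439 and 0.0496).

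The fall did not come alone. The summed level of 7 general leukocyte markers (Ptprc, Coro1a, Laptm5, Cd53, Lcp1, Cytip and Dock2) was 2789 to 5485 CPM in WT D0 and 1645 to 3487 CPM in WT D7 joints, and 3517 to 5997 CPM in Trem2-/- D0 against 1257 to 1574 CPM in Trem2-/- D7 joints, and all 7 were called lower at D7 in both genotypes. All 8 neutrophil markers, all 7 eosinophil markers tested of 9 listed, and 6 (WT) and 7 (Trem2-/-) of 9 stem and progenitor markers were called lower too. The progenitor markers lower in both genotypes were Mpo, Elane, Prtn3, Ctsg, Ms4a3 and Hlf. In Trem2-/- joints 1 of the 9, Cd34, was called higher (log2 fold change 0.59, limma adjusted p = 0.0472). Over all genes 18.2% (WT) and 27.9% (Trem2-/-) were called lower, and 19.3% and 26.5% higher. The summed eosinophil level was 70.6 to 544 CPM in WT D0 and 33.3 to 76.4 CPM in WT D7 joints, and 65.9 to 435 CPM in Trem2-/- D0 and 31.6 to 73.2 CPM in Trem2-/- D7 joints. Summed progenitor markers were 954 to 2631 and 471 to 915 CPM in WT D0 and WT D7, and 1142 to 4207 and 590 to 651 CPM in the Trem2-/- groups. Summed neutrophil markers were 14132 to 32627 CPM in WT D0, 4535 to 13940.0 CPM in WT D7, 14446 to 43452 CPM in Trem2-/- D0 and 4273 to 7159 CPM in Trem2-/- D7 joints. Of 9 erythroid and megakaryocyte markers tested, 7 were lower and 1 higher in WT joints, and 6 lower and 1 higher in Trem2-/- joints. Connective tissue markers went the other way, with 5 (WT) and 6 (Trem2-/-) of 7 called higher, and so did 6 of 8 macrophage markers in WT joints (5 higher and 1 lower in Trem2-/- joints). Melanocytes also express Kit, and of 5 melanocyte markers Tyr, Dct and Mlana were not in the table and Pmel and Tyrp1 summed to at most 2.81 CPM in any library. The part of marrow and blood cells in the members' fall was not tested. The scaling that follows uses markers of leukocytes in general and does not test it either.

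To set the members against the leukocytes sampled, each library was rescaled to the geometric mean of the 7 leukocyte markers, a choice made after the data were seen. This moved the median log2 fold change of all genes to 0.71 in WT and 1.62 in Trem2-/- joints. Of the 8468 (WT) and 11925 (Trem2-/-) genes called on this scale, 0.838% and 0.310% were lower, so a lower call was rare for any gene. On this scale the log2 fold change of Mcpt8 at D7 was -0.75 in WT (limma unadjusted p = 0.0340, adjusted p = 0.05895) and -0.55 in Trem2-/- joints (unadjusted p = 0.112), so only the WT call was kept. Cpa3 was at -0.41 and -0.14, Fcer1a at -0.42 and -0.04, and Hdc at -0.05 and -0.12, none of them called. Hdc per leukocyte marker was 714 to 988 in WT D0, 534 to 1020.5 in WT D7, 577 to 1118 in Trem2-/- D0 and 712 to 832 rescaled CPM in Trem2-/- D7 mice. The 4 Hdc groups thus lay on top of each other once each library was set against its leukocyte markers.

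The other members moved up relative to the leukocyte markers, as most genes did. Kit rose to log2 fold changes of 0.76 in WT and 2.11 in Trem2-/- joints, from 14.5 to 19.6 rescaled CPM at D0 to 52.5 to 103 at D7 in the Trem2-/- mice. Cma1 was at 0.91 and 0.87, Tpsb2 at 0.92 and 1.13, and Mcpt4 at 0.63 (not called) and 1.23. Beside the shift of all genes, Kit lay above it in Trem2-/- joints and close to it in WT joints (0.76 against 0.71). The log2(CPM + 1) scale understates change at the low levels of Mcpt4, Cma1 and Tpsb2, so these are not placed against that shift. Their mean rescaled CPM went from 1.55 to 3.23, 1.12 to 2.99 and 0.887 to 2.81 in WT mice. In Trem2-/- mice it went from 0.446 to 2.76, 0.625 to 1.99 and 0.405 to 2.33. Ms4a2 dropped below the filter on this scale and could not be fitted.

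**Figure D3:**
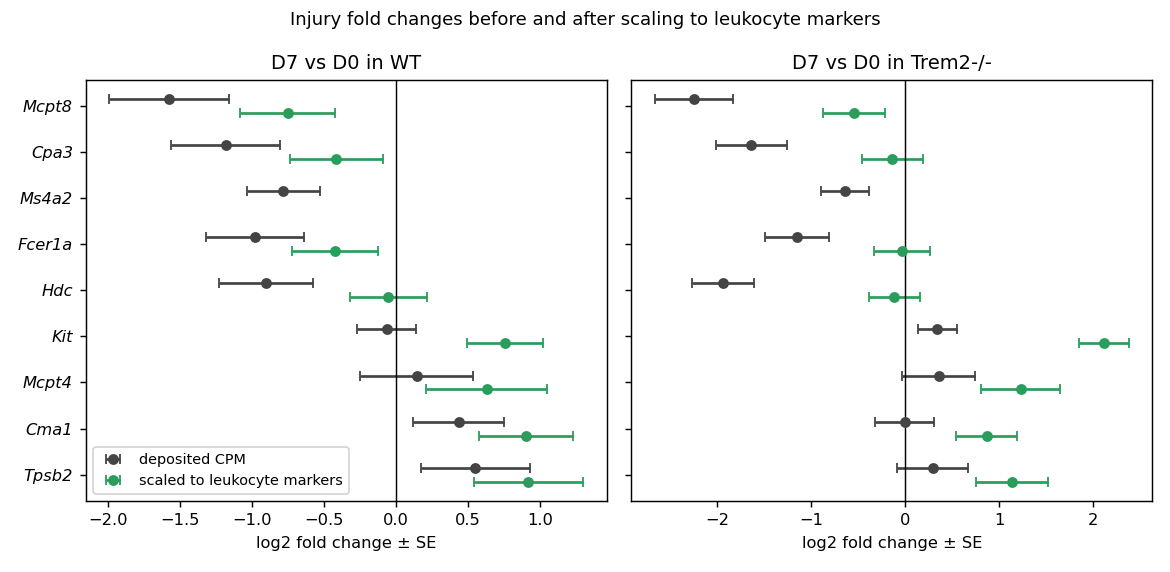
Log2 fold change at D7 against D0 with its SE (x axis) for the 9 genes in WT and Trem2-/- joints, from the deposited CPM (dark) and after rescaling each library to 7 leukocyte markers (green), which has no value for Ms4a2. After rescaling, Hdc comes close to 0 in both genotypes, Cpa3 and Fcer1a lie at -0.41 and -0.42 in WT and at -0.14 and -0.04 in Trem2-/- joints, and Kit turns from -0.06 to 0.76 in WT joints.

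The second question was whether the knockout of Trem2 altered these genes. At D0, 0 of 9 members were called in either direction by limma (1.37% of all genes lower, 0.782% higher and 2.15% in either direction, with 385 genes at an unadjusted p under 0.05), and no member's groups were separate (0.539% of all genes in the lower direction). The edgeR test on recovered reads also called 0 members. The lowest p among members was that of Mcpt4, 0.0678 unadjusted, whose log2 fold change was -0.77 (95% interval -1.60 to 0.06). It was 1.12 to 3.23 CPM in WT D0 and 0.119 to 1.21 CPM in Trem2-/- D0 mice, overlapping by a single WT mouse, and leaving out WT D0 replicate 3, that mouse, made the call (limma unadjusted p = 0.0470). DESeq2 on the recovered reads, and limma on the 2 groups alone, called 1 member, Mcpt4. Without Trem2-/- D0 replicate 2, Cma1 was called lower (limma unadjusted p = 0.0294).

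At D7, 4 members were called lower in Trem2-/- than in WT joints and 0 higher, against 4.53% of all genes lower, 1.18% higher and 5.72% in either direction. None passed adjustment, as was true of all 13173 genes (0 called, 958 at an unadjusted p under 0.05). Cpa3 had a log2 fold change of -0.87 ± 0.38 (limma unadjusted p = 0.0362, adjusted p = 0.642, exact permutation p = 0.114) and Mcpt8 one of -0.90 ± 0.41 (0.0462, 0.674 and 0.0857). Cma1 was at -0.80 ± 0.31 (limma unadjusted p = 0.0221, adjusted p = 0.615, exact permutation p = 0.0571) and Hdc at -0.77 ± 0.33 (0.0322, 0.627 and 0.171). No member had separate groups, which was the case for 4.78% of all genes in the lower direction: the lowest WT D7 mouse lay inside the Trem2-/- D7 range for each of the 4 but Hdc, whose lowest WT mouse, at 320.5 CPM, lay below all 4 Trem2-/- mice. Mcpt4 (-0.56), Tpsb2 (-0.55), Fcer1a (-0.08) and Ms4a2 (-0.04) were lower without being called, and Kit was at 0.32.

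These 4 calls rested on few mice. Without WT D7 replicate 3 none of the 4 was called, and without WT D7 replicate 1, Trem2-/- D7 replicate 2 or Trem2-/- D7 replicate 4, 1 was. Without Trem2-/- D7 replicate 1, 2 were, and without WT D7 replicate 2 or WT D7 replicate 4, 3 were, in the former case Hdc, Cma1 and also Mcpt4 (limma unadjusted p = 0.0126). The voom test of the study's methods, on recovered reads, called 2 of the 4, Cma1 and Hdc. All 7 leukocyte markers were called lower in Trem2-/- than in WT joints at D7 as well, against 4.53% of all genes. After scaling to these markers the log2 fold changes were -0.31 for Cpa3, -0.24 for Mcpt8, -0.45 for Cma1 and -0.04 for Hdc, none of them called. On that scale Kit was higher in Trem2-/- joints (log2 fold change 1.05, limma adjusted p = 0.0441), beside a median of 0.70 for all genes.

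Whether the injury response itself differed between genotypes was tested with the interaction term of genotype and injury. Of the members, Hdc alone was called, with a log2 difference of -1.04 ± 0.46 (limma unadjusted p = 0.0408, adjusted p = 0.607), and 5.02% of all genes were called in that direction, 2.77% in the other and 7.79% in either. Hdc fell 1.72-fold in WT and 3.93-fold in Trem2-/- joints, and the difference was -0.06 after scaling to the leukocyte markers. The call was lost without WT D0 replicate 1 or 4, WT D7 replicate 3 or 4, Trem2-/- D0 replicate 1 or 2, or Trem2-/- D7 replicate 1, 2 or 4 (limma unadjusted p = 0.0532 to 0.0931). The intervals of the remaining members were wide, for example -1.93 to 0.57 for Mcpt8 and -1.60 to 0.68 for Cpa3. Apart from Ms4a2 (-0.62 to 0.90), differences of 2-fold and more between genotypes were thus not excluded. For Ms4a2 the log2(CPM + 1) scale understates change, as its level was low.

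Mice of one group differed in these genes in a patterned way. Deviations from the group mean on the log2(CPM + 1) scale were compared between members over the 16 libraries, as a description, since the genes share libraries and depth and the sets were formed after their values were seen. Mcpt8, Cpa3, Ms4a2 and Fcer1a varied together, with Pearson's r of 0.736 to 0.905 in their 6 pairs. Mcpt4, Cma1 and Tpsb2 varied together at 0.625 to 0.854 in their 3 pairs. Between the sets, the 12 pairs had r from -0.412 to 0.131. Cpa3 therefore varied with the basophil protease and the IgE receptor and not with the chymases and the tryptase. Hdc stood apart from both (0.046 to 0.200 with the other members), and Kit leaned to the Mcpt8 set (0.434 to 0.575 with its 4 genes).

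**Figure D4:**
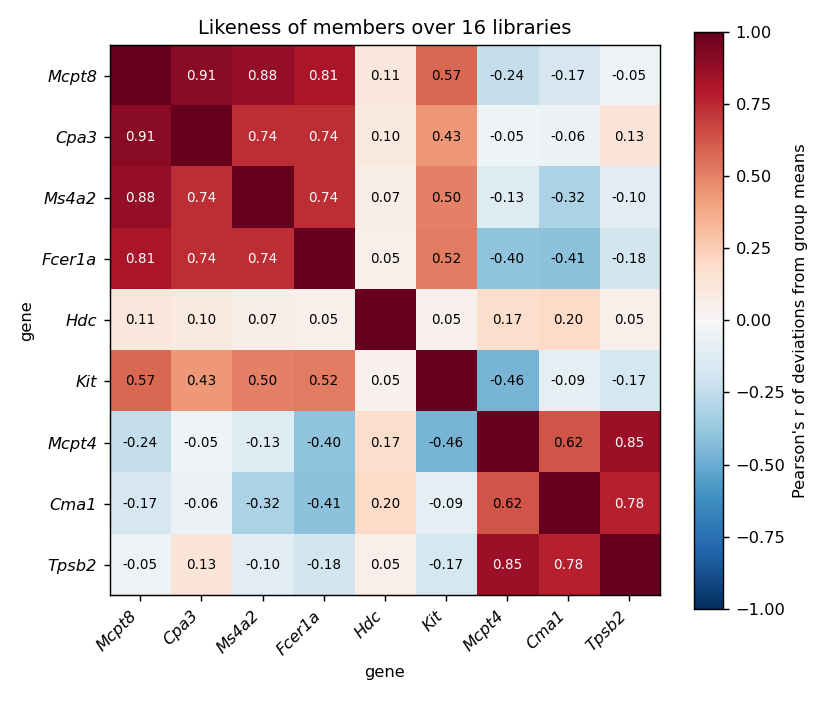
Pearson's r between the 9 genes (both axes) of their deviations from group means on the log2(CPM + 1) scale over 16 libraries, from blue (-1) to red (1). Mcpt8, Cpa3, Ms4a2 and Fcer1a form one red block, Mcpt4, Cma1 and Tpsb2 a second one, and Hdc has values of 0.20 or less with every other gene.

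Scores of other cell types, each the mean log2 level of its listed genes, were set beside the members in the same way. Mcpt8 had r of 0.930 with the eosinophil score, 0.924 with the progenitor score, 0.683 with the neutrophil score and -0.567 with the connective tissue score. Cpa3 had 0.890, 0.834, 0.638 and -0.546 with the same scores. Hdc had 0.786 with the leukocyte score and 0.656 with the neutrophil score, but 0.095 with the eosinophil and -0.013 with the progenitor score. Mcpt4, Cma1 and Tpsb2 had between -0.390 and 0.359 with all 7 scores. Over all 16 libraries, mice low in Mcpt8 and Cpa3 for their group thus tended to be low in eosinophil and progenitor transcripts too. The chymases and the tryptase followed none of these lists.

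Over the 12843 genes whose mean reached 1 CPM, those whose deviations were most like those of Mcpt8 were Prss34 (r = 0.974), a basophil protease, then Fermt3 (0.966), Stmn1 (0.963), Padi2 (0.955) and Polr3c (0.953). For Cpa3 they were Gpr65 (0.917), Polr3c (0.917), Prg2 (0.916), the major basic protein of eosinophils, Mcpt8 (0.905) and Gm6377 (0.904). Outside the naming rule, and chosen after their values were seen, the 5 nearest genes were also taken for 3 other proteases. For Tpsb2 they were Mcpt4 (0.854), Mitf (0.785), Cma1 (0.778), Tceal1 (0.7585) and Phex (0.732). For Cma1 they were Tmem35b (0.835), Tpsb2 (0.778), Rnf165 (0.767), Mitf (0.762) and Slc24a1 (0.760). For Mcpt4 they were Tpsb2 (0.854), Epc1 (0.846), Nbr1 (0.839), Mtmr12 (0.823) and Zfp784 (0.799). Mitf, absent from the Mcpt4 list, encodes a transcription factor that mast cells depend on. Its mean in WT D0 joints was 13.2 CPM, against 1.11 CPM for Tpsb2, and which cells carried its reads was not tested.

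Other genes of the same pathways were counted from lists chosen by function. Their counts stand beside the shares over all genes. After injury these were 18.2% called lower and 19.3% higher in WT joints and 27.9% and 26.5% in Trem2-/- joints. Between genotypes they were 4.53% lower and 1.18% higher at D7, and 1.37% and 0.782% at D0. With so few genes a list nothing particular to a list is read from the counts. Of 8 further basophil genes, 3 were called lower and 1 higher in WT joints at D7, and 4 lower and 2 higher in Trem2-/- joints, with Il4 and Il13 among those lower in both. Prss34 went from 100.3 ± 54.7 to 27.8 ± 10.4 CPM in WT and from 85.8 ± 35.6 to 14.1 ± 2.56 CPM in Trem2-/- joints (n = 4 each, log2 fold changes -1.70 and -2.44, limma adjusted p = 0.00908 and 0.000228). The type 2 cytokine genes Il4 (log2 fold changes -0.82 and -0.70) and Il13 (-0.71 and -0.53) were called lower in both genotypes, but at D7 neither exceeded 0.696 CPM in any mouse, so that only uninjured libraries carried them past the filter and they could hardly have been tested without being higher at D0. On the leukocyte scale Prss34 was still called lower in both genotypes, 4 of these genes were called higher, and Il4 and Il13 could not be fitted. Higher calls were usual for any gene there, as all but 0.838% (WT) and 0.310% (Trem2-/-) of the calls were higher. Itga2, an integrin gene not limited to basophils, rose from 5.15 to 9.96 CPM in WT and from 3.62 to 13.4 CPM in Trem2-/- joints.

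Of 12 receptors and transcription factors of mast cells, 7 were tested, and 4 were called lower and 2 higher in each genotype. Gata2 fell from 56.4 ± 6.67 to 35.4 ± 3.47 CPM in WT and from 60.9 ± 12.9 to 34.0 ± 0.626 CPM in Trem2-/- joints (limma adjusted p = 0.00411 and 0.000258). Adora3, an adenosine receptor gene, fell on the log2 scale by 0.45 in WT (limma adjusted p = 0.106) and by 0.97 in Trem2-/- joints (adjusted p = 0.00108). At D7 only replicate 3 of the WT mice exceeded 1 CPM, at 1.72 CPM (others 0.594 to 0.696), and the Trem2-/- mean was 0.587 ± 0.332 CPM. Adora3 thus needed uninjured libraries to pass the filter of 1 CPM in 4 libraries and could hardly have been tested without being higher at D0. Mitf rose from 13.2 ± 1.64 to 22.0 ± 3.78 and from 12.8 ± 2.49 to 19.2 ± 2.33 CPM (limma adjusted p = 0.0058 and 0.00625). Il1rl1, the receptor for the alarmin IL-33, which fibroblasts can also express, rose from 52.2 ± 56.6 to 117 ± 31.6 and from 20.7 ± 5.98 to 167 ± 43.5 CPM. A single WT D0 mouse, replicate 4, held 136 CPM of Il1rl1 against 16.3 to 34.6 CPM in the other three. On the leukocyte scale Gata2 and Tal1 were called higher in Trem2-/- joints. Higher calls were usual for any gene there: of 11925 genes called, all but 0.310% were higher, and the median of all genes was 1.62. None of the 7 was called lower on that scale, where lower calls were rare for any gene.

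Of 14 granule and amine genes 8 were tested, and 3 were called lower and 2 higher in WT joints, and 4 lower and 3 higher in Trem2-/- joints, where 54.5% of all genes were called in either direction. Tpsab1, Tpsg1, Mcpt1, Mcpt2, Mcpt9 and Tph1 had no row in the table used here. Slc18a2, the transporter that loads histamine and serotonin into granules, fell from 12.3 to 7.43 CPM in WT and from 11.8 to 5.09 CPM in Trem2-/- joints (limma adjusted p = 0.0334 and 0.00135). Srgn, the proteoglycan core that holds granule contents in many blood cells, fell by 0.91 and 1.67 on the log2 scale. Rab27b and Cd63, which act in granule traffic and in the granule membrane but are active in many cell types, rose (log2 fold changes 1.40 and 2.17 for Rab27b, 0.48 and 1.06 for Cd63). At D7 Cd63 was the only one of these genes called between genotypes, higher in Trem2-/- joints by 0.35 on the log2 scale (limma adjusted p = 0.627), and at D0 Rab27b was called lower there. On the leukocyte scale, where lower calls were rare for any gene, 0 of the 8 were called lower in either genotype.

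Signaling below the IgE receptor is shared with other leukocytes. Of 15 such genes tested, 10 were called lower in WT joints at D7, and 12 lower and 1 higher in Trem2-/- joints. Btk fell from 40.5 ± 16.2 to 18.5 ± 2.16 CPM and from 44.0 ± 9.36 to 10.8 ± 0.725 CPM, and Fcer1g, the signaling chain of the receptor, from 194 ± 57.9 to 113 ± 40.9 and from 237 ± 63.0 to 70.7 ± 8.83 CPM. Between genotypes at D7, 10 of the 15 were called lower in Trem2-/- joints, against 4.53% of all genes. Their adjusted p values from limma were 0.451 or more, and the median log2 fold change of the 15 was -0.61. The leukocyte markers in the same comparison had a median of -0.78. Fcer1a and Ms4a2, the alpha and beta chains of the receptor, were not among the genes called there. On the leukocyte scale 0 of the 15 were called lower in any of these comparisons. Of all calls on that scale only 0.838% (WT), 0.310% (Trem2-/-) and 0.0483% (between genotypes at D7) were lower, so nothing is read from that 0.

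Of 11 genes that handle eicosanoids and histamine 8 were tested, and 5 (WT) and 6 (Trem2-/-) were called lower and 1 higher. On the leukocyte scale, where lower calls were rare for any gene, 0 were called lower. Alox5 and Alox5ap, which begin leukotriene synthesis, fell on the log2 scale by 0.75 and 1.02 in WT and by 1.93 and 2.02 in Trem2-/- joints. Hpgds, the prostaglandin D synthase of mast cells and some macrophages, rose from 3.78 ± 0.981 to 9.48 ± 2.06 and from 2.25 ± 0.706 to 6.05 ± 0.935 CPM, and was called lower in Trem2-/- than in WT joints at both times (limma unadjusted p = 0.0108 at D7 and 0.0109 at D0, neither passing adjustment). Of the growth factor and alarmin genes, Il33, which encodes an alarmin, was called higher in Trem2-/- joints (log2 fold change 1.22, limma adjusted p = 0.0674) and not in WT joints, and its interaction of genotype and injury was not called. Kitl, which encodes the ligand of KIT, was not called in either genotype. On the leukocyte scale Il33 was called higher in both genotypes and Kitl in Trem2-/- joints. All but 0.838% (WT) and 0.310% (Trem2-/-) of the calls over all genes were higher there, so nothing is read from these calls.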

How the data were processed

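RNA was sequenced in bulk from knee joints of 16 mice, 4 in each of 4 groups. The authors used STAR for alignment to mm10 and featureCounts for the gene counts. They deposited signal values, which are TMM-normalized counts per unit of library size (CPM) from edgeR. Tool versions, the annotation, the strand setting and the rule that removed low genes are not given in the sources used here. In every library 100% of the deposited values were whole multiples of what 1 read is worth, within a tolerance of 0.01 reads, so read counts and depth could be recovered. Libraries held 11567073 to 32867818 reads, and 3 reads corresponded to 0.101 to 0.250 CPM, a limit that covers counting error only. Of 13734 rows, 1 symbol was listed again with identical values and was counted once. No pair of replicates agreed within sampling noise (lowest chi-square per degree of freedom 10.4).

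Levels were compared on the log2(CPM + 1) scale with limma 3.58.1 in R 4.3.3 (lmFit, eBayes with a trend), over 13173 genes that reached 1 CPM in 4 or more libraries and all 4 groups as one factor. All fold changes from limma are on that scale, which understates the change of low genes, whereas folds of means are ratios of mean CPM. Adjusted p values are Benjamini-Hochberg over all genes tested. Single members were also compared by exact two-sided permutation tests of 4 against 4 mice, whose smallest p is 0.0286, in a family of 36 tests. P values measure the spread between libraries that the labels give as separate mice. The study's own test, limma with voom, was run on recovered reads as an alternative. On the same reads, edgeR 4.0.16 (quasi-likelihood) called 5025 genes at D7 against D0 in WT, 7276 in Trem2-/-, 1221 for the interaction, and 884 (D7) and 466 (D0) between genotypes, and DESeq2 1.42.0 was run as another alternative. Other alternatives were the pseudocount, filter, scaling, samples fitted, fold change and leaving out each mouse. The limma step was tested on simulated data for D7 against D0 in WT.

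The 9 members and all gene lists were chosen with earlier results of these data known. Named genes were Trem2, every member, up to 4 genes per pathway list with the smallest p among those called after injury, every pathway gene called between genotypes, and the 5 genes most like Mcpt8 and Cpa3. For long lists the text gives examples of these and the counts. One gene under this rule is not reported here. Gene positions were taken from GENCODE M21 on GRCm38 and promoter sequences from RefSeq on GRCm38.p6.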

Additional observations from a re-analysis of the deposited data

Results flagged for a closer look

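By Dixon's criterion no member had a mouse apart from its group, though Mcpt8 in WT D7 was close to it, with replicate 4 at 8.08 CPM and the others at 16.4 to 18.3. Of the members, Hdc alone had an injury response that differed between genotypes without adjustment in limma (log2 difference -1.04, adjusted p = 0.607).

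Over the members, Trem2 and the named pathway and marker genes together, 12 of 216 groups of 4 mice held a mouse whose gap to the nearest other mouse was a large share of the group's range, where chance gives about 10.8. The share was 0.8765 for Slc18a2 in Trem2-/- D0, where replicate 1 held 17.6 CPM and the others 9.22 to 10.3. It was 0.9062 for Rab27b and 0.8476 for Il1rl1 in WT D0, where replicate 4 held 12.9 CPM of Rab27b (others 7.11 to 7.66) and 136 CPM of Il1rl1 (others 16.3 to 34.6). In Trem2-/- D0 it was 0.8492 for Il1rl1 and 0.8363 for Adora3, both for the high replicate 1, and 0.8942 for Itga2, where replicate 3 was low at 1.85 CPM (others 4.09 to 4.36). In WT D7, replicate 3 was high for Adora3 (0.9093, at 1.72 CPM against 0.594 to 0.696) and for Btk (0.9696, at 21.8 CPM against 17.4 to 17.5). In Trem2-/- D7, replicate 3 was high for Lat (0.8809) and Ptpn6 (0.9377) and low for Inpp5d (0.8352), and replicate 4 was low for Prg2 (0.9499, at 21.6 CPM against 49.6 to 51.1).

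The interaction of genotype and injury was at an unadjusted p under 0.05 in limma for 20 of these 54 genes and for 1075 of all 13173 genes, and 0 passed adjustment. The 54 were not an independent choice, since some were named because they were called between genotypes at D7, a comparison that shares the Trem2-/- D7 and WT D7 mice with the interaction. Apart from Hdc, the log2 differences of IgE receptor signaling genes were -0.91 for Fcer1g, -1.005 for Syk, -0.70 for Lat2, -1.07 for Lcp2, -0.90 for Btk, -0.72 for Plcg2, -1.08 for Vav1, -0.96 for Inpp5d and -1.09 for Ptpn6. Those of Alox5, Alox5ap and Hrh2, which handle leukotrienes and histamine, were -1.17, -0.99 and -1.04. The leukocyte markers Lcp1 and Laptm5 were at -0.97 and -0.94 and the macrophage markers Csf1r and Cd68 at -0.77 and -0.65. Rab27b (0.77), Cd63 (0.58) and Itga2 (0.79) had positive differences.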

How the results depend on the processing

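Across all alternatives but the scaling to leukocyte markers, 904 of 983 values of the members' fold changes kept their direction and side of the threshold, 41 lost a call, 7 gained one and 31 changed sign. For the 5 genes that fell after injury these were 199, 7, 0 and 0 of 206, and for the 4 called between genotypes at D7 59, 24, 0 and 0 of 83. That scaling, added after the data were seen, moved the median of all genes by 0.71 (WT), 1.62 (Trem2-/-), 0.70 (genotype at D7), -0.20 (genotype at D0) and 0.90 (interaction) and called 8468, 11925, 8280, 150 and 7086 genes. With it 1 (WT) and 0 (Trem2-/-) members were called lower after injury, and 3 and 4 higher, where 0.838% and 0.310% of all calls were lower. Between genotypes at D7 it called 0 lower and 1 higher, that 1 passing adjustment, and for the interaction 0 lower and 1 higher. It changed the sign of Kit in WT (0.76), Cma1 in Trem2-/- (0.87), Fcer1a between genotypes (0.34 at D7, -0.0462 at D0) and the interactions of Cpa3 (0.28), Tpsb2 (0.21), Mcpt8 (0.20) and Fcer1a (0.38). Fold changes over 1.5 called 2985 genes in WT after injury, 635 for the interaction, and 340 (D7) and 131 (D0) between genotypes. Fitting only the groups compared called 1366 genes at D7 and 149 at D0, 1 member in WT by adjusted p and 1 member at D0. At D0, pseudocount 5 called 164 genes, edgeR 466 and DESeq2 547, the last including 1 member. A mean of at least 5 CPM, which leaves out Mcpt4, Cma1, Tpsb2, Ms4a2 and Fcer1a, called 3 members lower in each genotype, 3 by adjusted p in Trem2-/-. At D7, 1 member was called between genotypes with pseudocount 5 and 2 with voom, and voom called 0 for the interaction. Signs also changed for Cma1 in Trem2-/- (0.10 with pseudocount 0.1, 0.00073 with median-of-ratios scaling, 0.19 with voom), and at D7 for Ms4a2 (0.0492, quantile normalization) and Fcer1a (0.00661, pseudocount 0.1). The cause was not tested. Of the calls between genotypes at D7, 79.3% were lower, and 66.7% with quantile normalization, 65.5% in the groups compared alone, 90.3% at a fold over 1.5 and 0.0483% on the leukocyte scale. At D0 63.6% were lower, and 76.6% (edgeR), 79.3% (DESeq2), 79.4% (fold over 1.5) and 97.3% (leukocyte scale). Leaving out each mouse in turn gave 0 to 5 members by adjusted p in WT, 0 to 1 higher in Trem2-/-, 0 to 4 lower at D7, 0 to 1 lower at D0 and 0 to 1 lower for the interaction. Counts of all genes ran from 480 (without WT D7 replicate 3) to 1123 at D7, from 107 (without WT D0 replicate 4) to 1231 (without WT D0 replicate 2) at D0, and from 609 to 2236 (without the same mice) for the interaction. Log2 fold changes that crossed 0 ran from -0.0441 to 0.55 (Mcpt4) and -0.22 to 0.0432 (Kit) in WT, from -0.19 to 0.30 (Cma1) in Trem2-/-, from -0.11 to 0.0613 (Ms4a2) and -0.33 to 0.12 (Fcer1a) at D7, from -0.64 to 0.0396 (Mcpt8), -0.23 to 0.0277 (Kit), -0.39 to 0.0690 (Ms4a2) and -0.21 to 0.33 (Fcer1a) at D0, and from -0.19 to 0.42 (Mcpt4), -0.10 to 0.35 (Ms4a2) and -0.43 to 0.13 (Fcer1a) for the interaction. Replicate numbers did not pair the mice (r of deviations from -0.51 to 0.41 in 24 pairs, 11 over 0.1, and 6 of 16 libraries correlated best with their own number), and the fit with the replicate block called 4891, 7094, 757, 279 and 1009 genes, with 3 (WT) and 4 (Trem2-/-) members by adjusted p. Depth limits Mcpt4, Cma1, Tpsb2, Ms4a2 and Fcer1a, whose counts were low in every group.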
